A study of Mus musculus with 8 samples.

Results

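The lysosomal enzyme and membrane genes are 41 genes that encode acid hydrolases of the lysosome, proteins of its membrane, and Tfeb, a transcription factor that controls many of them. A gene was a member if its symbol was on the list, drawn up with earlier results of these data known, and a probe set of the array carried that symbol and no other. Where a gene had more than 1 such probe set, the one with the highest mean was used. All 41 genes were measured, out of 19938 genes in all. Arsb had 2 probe sets and each of the other members had 1. By function they comprised 9 proteases, 12 glycosidases, 6 genes of sulfate removal, 7 genes of lipid handling, 6 membrane proteins and Tfeb.

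Levels were measured on 8 Affymetrix whole-transcript arrays, 1 for each culture of mouse leukaemia-like cells. The cells began as c-Kit+ bone marrow cells of mice in which both Runx1 and Cbfb carried floxed alleles. They were transduced with MLL-AF9, a fusion oncogene of acute leukaemia, and with CreERT2, a Cre recombinase that enters the nucleus when 4-hydroxytamoxifen (4OHT) is present, and were replated under puromycin. All 8 cultures therefore carried MLL-AF9, CreERT2 and both floxed genes, and all grew in cytokine-rich methylcellulose. The 4 control cultures (Runx1/Cbfb-intact) received ethanol, and the 4 cultures labelled deleted received 4OHT at 1 µM; both were taken after 24 h. Each arm held 2 biological replicates of each of 2 clones. Cultures of both arms that share a clone and a replicate number form a set, which gave 4 sets. Runx1 and its partner Cbfb form a transcription factor complex of blood cell development. No culture without floxed genes was given 4OHT, so an effect of 4OHT or of active Cre cannot be told apart from that of the deletion.

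Lysosomes are acidic organelles that break down proteins, glycans, sulfated sugars and lipids taken up from outside or delivered by autophagy. Most of their hydrolases are tagged with mannose 6-phosphate in the Golgi and carried to the lysosome by receptors. TFEB and its relatives TFE3, MITF and TFEC bind a DNA element whose core is CACGTG, found near the start of many lysosomal genes. Myeloid cells, macrophages above all, are rich in lysosomes.

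For that reason the windows from 250 bases before to 50 bases after the transcription start were searched for it. Windows came from RefSeq on the mouse build GRCm38.p6, and 35 of the 41 members had at least 1. The 8-base motif GTCACGTG, searched on both strands and containing the shorter motif CACGTG, lay in a window of 11 of the 35 members (31.4%). It lay in 2.25% of all 32851 windows of the same length, and in a window of 3.46% of the 15614 measured genes that had one. The shorter CACGTG lay in windows of 13 of the 35 members (37.1%), against 7.15% of all windows and 9.5% of the measured genes with one. One match of each of the 11 members is printed on the strand of the gene from 5′ to 3′, with the 8 bases of the motif in capitals. These are given because the motif is the element bound by the factor that is itself a member, and because it was counted in the members' windows.
Ctsa, chr2:164833748-164833777, plus strand: atgagcaaactGTCACGTGatgcagatgct
Ctsd, chr7:142387907-142387936, minus strand: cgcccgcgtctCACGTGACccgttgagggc
Lgmn, chr12:102439125-102439154, minus strand: atggaatgtctGTCACGTGgtccattttat
Gla, chrX:134601183-134601212, minus strand: gtgagatctcgGTCACGTGagcaactctcg
Glb1, chr9:114401017-114401046, plus strand: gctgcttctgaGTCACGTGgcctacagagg
Naglu, chr11:101070008-101070037, plus strand: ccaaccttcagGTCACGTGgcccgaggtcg
Sgsh, chr11:119355521-119355550, minus strand: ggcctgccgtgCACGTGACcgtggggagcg
Arsa, chr15:89477424-89477453, minus strand: ttcaactcagtGTCACGTGttgtctgctcc
Sumf1, chr6:108185578-108185607, minus strand: aagcaccacagGTCACGTGatctccatggg
Mcoln1, chr8:3500435-3500464, plus strand: gggtcgcgcttGTCACGTGttcagttcagg
Lamp1, chr8:13159122-13159151, plus strand: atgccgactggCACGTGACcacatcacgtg

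The distance of the motif's first base from the transcription start was -29 in Sgsh, -14 in Ctsa, -28 in Lamp1 and -196 in Gla. Ctsa, Ctsd and Mcoln1 each held a second match in the window, not shown. The letters TGTGGT, a core that RUNX proteins bind, were found on either strand in a window of 8 of the 35 members (22.9%), against 16.76% of all windows and 16.44% of the measured genes with one. These 8 were Ctsa, Glb1, Gpnmb, Hexa, Lamp1, Lgmn, Psap and Sumf1. A match is only a run of letters and says nothing of binding in these cells.

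The 8 arrays were alike in scale, with medians between 6.26 and 6.39 on the log2 scale of the deposited values. Runx1 itself read higher in the arrays labelled deleted, from 10.58 to 11.19, than in the control arrays of the same set, from 10.05 to 10.71, a difference of 0.52 ± 0.04 (SE, 4 sets; adjusted p = 1.64e-05, limma). Cbfb differed by -0.18 ± 0.05 (adjusted p = 0.128). Where the probes of either gene lie relative to the deleted exons was not analysed here, so neither value checks the deletion, and the arm is called "labelled deleted" throughout. As a check of the labelled cells, Mpo and Elane, enzymes of granulocyte precursors, were present on every array, at 12.93 to 13.18 and 13.27 to 13.36. Values below are log2 probe-set levels, differences are labelled deleted minus control, and values for 4 arrays follow the order clone 1 replicate 1, clone 1 replicate 2, clone 2 replicate 1, clone 2 replicate 2. Levels of different genes come from different probes and are not ranked against each other.

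The question for the comparison was whether levels of the lysosomal genes differed 24 h after 4OHT. Of the 41 genes, 1 passed the threshold of an adjusted p under 0.05, Sgsh, which was higher in the arrays labelled deleted. None was lower. Over all genes, 190 of 19938 passed (0.953%), 0.481% higher and 0.471% lower, so the members' count rests on a single gene. At an unadjusted p under 0.05 the members numbered 7, all higher (Sgsh, Arsb, Gpnmb, Ppt1, Ctsb, Hexa and Npc1), against 6.47% of all genes. Out of 19938 genes, 643 were higher and 646 lower at that unadjusted p. The fitted difference was above 0 in 31 of the 41, with a median of 0.02 and a range from -0.07 (Hgsnat) to 0.49 (Sgsh). Over all genes it was above 0 in 9997 of 19938, with a median of 0.00. Centring each array on its own median shifted members and all genes alike. Then 20 of the 41 were above 0 with a median of 0.00, and 7075 of 19938 genes with a median of -0.02. After centring, 3 of the 41 had an unadjusted p under 0.05, and 1125 of 19938 genes did.

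**Figure D1:**
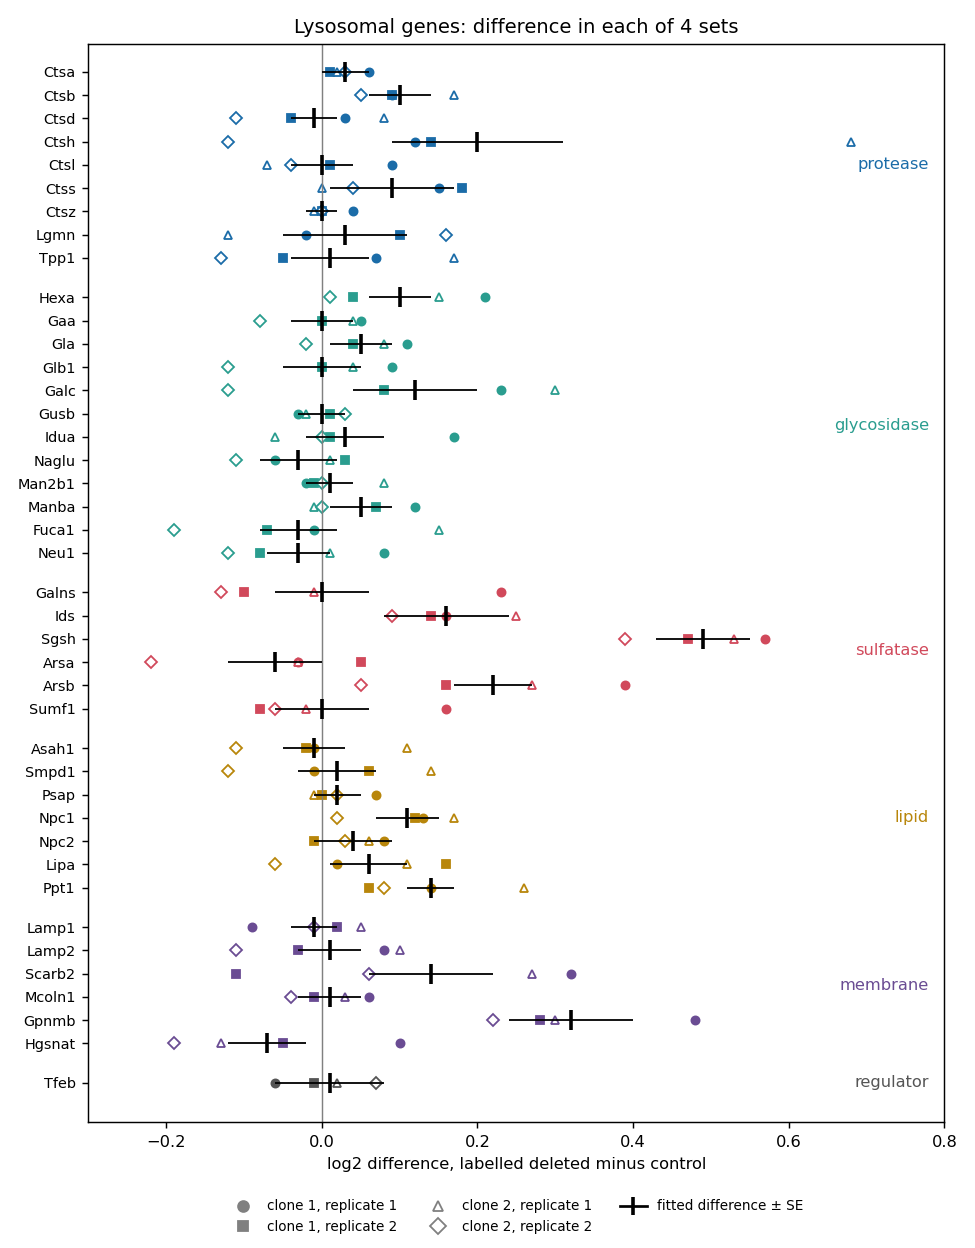
Difference in log2 level, labelled deleted minus control (x axis), for each of the 41 genes (rows, by class). The 4 symbols are the 4 sets, the tick is the fitted difference and the bar its SE. Sgsh lies between 0.39 and 0.57 in every set, while most other genes straddle 0.

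Of the 41, 9 were higher in 4 of 4 sets (Ctsa, Ctsb, Hexa, Ids, Sgsh, Arsb, Npc1, Ppt1 and Gpnmb) and 0 were lower in all 4. Over all genes, 6.63% were higher in 4 of 4 sets and 6.51% lower. The arrays of the arms did not overlap for 2 members, Sgsh and Arsb, against 1.17% of all genes.

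The genes of sulfate removal held the one call. Their median difference was 0.08, with 1 of 6 higher and 0 lower. Sgsh encodes N-sulfoglucosamine sulfohydrolase, which removes sulfate from heparan sulfate and whose loss causes Sanfilippo disease. It read 8.36, 8.42, 8.49 and 8.72 in the control arrays and 8.93, 8.89, 9.01 and 9.11 in the arrays labelled deleted. The lowest array labelled deleted lay above the highest control array. The means were 8.50 ± 0.16 and 8.99 ± 0.10 (SD, n = 4), and the fitted difference was 0.49 ± 0.06 (SE), 1.40-fold, with an adjusted p of 0.00128 (limma) and a 95% interval from 0.36 to 0.61. Clone 1 gave 0.52 ± 0.09 (adjusted p = 0.0242) and clone 2 gave 0.46 ± 0.09 (adjusted p = 0.0251), and the effects of the clones differed by -0.06 ± 0.13 (adjusted p = 1). Sgsh ranked 27th by size among the 96 genes that were higher. Without the set as a block the call was lost (adjusted p = 1), as it was when all 35556 probe sets were tested (adjusted p = 0.155); over the 17 alternatives the difference ran from 0.43 to 0.55, the adjusted p ran from 1.54e-05 to 1, and 15 passed. In the RefSeq table for GRCm38.p6, Slc26a11, a sulfate and anion transporter, lies beside Sgsh, and it differed by 0.15 ± 0.10 (adjusted p = 1).

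Arsb, the arylsulfatase that acts on dermatan and chondroitin sulfate, missed the threshold. It read 10.02, 10.14, 10.09 and 10.27 in the controls and 10.41, 10.29, 10.36 and 10.32 in the arrays labelled deleted, without overlap. The gap was narrow, since the control of clone 2 replicate 2 lay just below the lowest array labelled deleted. The difference was 0.22 ± 0.05 (adjusted p = 0.0839), and it passed in 5 of 17 alternatives, including without clone 2 replicate 2 (adjusted p = 0.00151) and with the mean of its 2 probe sets (0.044); the adjusted p ran from 0.00151 to 1. Ids, iduronate-2-sulfatase, read 7.09, 7.11, 6.49 and 6.38 in the controls and 7.25, 7.25, 6.74 and 6.47 in the arrays labelled deleted. Every set was higher, but the arms overlapped through the clones, and the difference of 0.16 ± 0.08 missed the threshold (adjusted p = 0.83). Galns, which desulfates keratan sulfate, read 9.76 to 10.03 in the controls and 9.88 to 9.99 in the arrays labelled deleted, a difference of 0.00 ± 0.06. Arsa, arylsulfatase A, differed by -0.06 ± 0.06, and Sumf1, the enzyme that activates every sulfatase, by 0.00 ± 0.06.

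None of the 9 proteases passed, and their median difference was 0.03. Ctsb, the cysteine protease cathepsin B, was higher in every set by a small amount: 10.70, 10.56, 10.74 and 10.81 in the controls and 10.79, 10.64, 10.91 and 10.86 in the arrays labelled deleted, with a difference of 0.10 ± 0.04 (adjusted p = 0.426). Ctsh, cathepsin H, read 5.43, 5.43, 6.91 and 6.76 in the controls and 5.54, 5.57, 7.58 and 6.64 in the arrays labelled deleted. The sets differed by 0.12, 0.14, 0.68 and -0.12, so that clone 2 replicate 1 stood highest, and the difference of 0.20 ± 0.11 did not pass (adjusted p = 0.955). Ctss, cathepsin S, an antigen-processing protease, ran from 6.38 to 6.61 in the controls and from 6.47 to 6.60 in the arrays labelled deleted (0.09 ± 0.08). Ctsz, a carboxypeptidase cathepsin, ran from 11.97 to 12.20 and from 11.96 to 12.19 (0.00 ± 0.02). Ctsd, the aspartic protease cathepsin D, ran from 11.31 to 11.91 and from 11.31 to 11.87 (-0.01 ± 0.03), and Lgmn, the asparaginyl endopeptidase, from 5.32 to 5.89 and from 5.31 to 5.83 (0.03 ± 0.08). The arms overlapped for each of these. Ctsa, which also protects the lysosomal sialidase, differed by 0.03 ± 0.03, Ctsl by 0.00 ± 0.04 and Tpp1, the tripeptidyl peptidase, by 0.01 ± 0.05. Ctsl ran from 9.31 to 10.55 in the controls and from 9.25 to 10.64 in the arrays labelled deleted. Tpp1 ran from 10.41 to 11.09 and from 10.44 to 11.11.

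None of the 12 glycosidases passed, with a median of 0.01 and a range from -0.03 to 0.12. Hexa, the alpha subunit of hexosaminidase lost in Tay-Sachs disease, read 11.26, 11.42, 11.12 and 11.20 in the controls and 11.47, 11.46, 11.27 and 11.20 in the arrays labelled deleted (0.10 ± 0.04, adjusted p = 0.492). The arms overlapped, and clone 2 replicate 2 hardly differed. Galc, which cleaves galactosylceramide, ran from 7.84 to 8.17 in the controls and from 7.92 to 8.38 in the arrays labelled deleted (0.12 ± 0.08). Gla, alpha-galactosidase A, ran from 10.30 to 10.60 and from 10.34 to 10.58 (0.05 ± 0.04), and Man2b1, the acid alpha-mannosidase, from 11.22 to 11.32 and from 11.20 to 11.34 (0.01 ± 0.03). The other 8, which act on glycogen, galactosides, glucuronides, iduronides, N-acetylglucosamine, mannosides, fucosides and sialic acids, differed by -0.03 to 0.05.

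Of the 7 genes of lipid handling, none passed, and the median was 0.04. Ppt1, palmitoyl-protein thioesterase, which removes fatty acids from proteins, read 11.60, 11.60, 11.23 and 11.37 in the controls and 11.74, 11.66, 11.49 and 11.46 in the arrays labelled deleted. Each set was higher by 0.06 to 0.26, while the arms overlapped, because the clones sit apart. Its difference was 0.14 ± 0.03 (adjusted p = 0.117), and it passed in 3 of 17 alternatives, among them without clone 2 replicate 2 (adjusted p = 0.0201), with a range from 0.0186 to 1. Npc1, the cholesterol exporter of the lysosomal membrane, read 10.12, 10.29, 9.45 and 9.63 in the controls and 10.25, 10.41, 9.62 and 9.65 in the arrays labelled deleted (0.11 ± 0.04, adjusted p = 0.61). Lipa, the acid lipase, ran from 9.90 to 10.31 and from 10.05 to 10.33 (0.06 ± 0.05). Psap, the precursor of the saposins, ran from 11.24 to 11.48 and from 11.23 to 11.56 (0.02 ± 0.03), and Npc2, the soluble cholesterol carrier, from 9.14 to 9.47 and from 9.19 to 9.54 (0.04 ± 0.05). The arms overlapped for all of these. Asah1, the acid ceramidase, and Smpd1, the acid sphingomyelinase, differed by -0.01 ± 0.04 and 0.02 ± 0.05.

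No membrane protein passed, with a median of 0.01 over 6. Gpnmb, a glycoprotein of lysosomes and melanosomes, read 7.49, 7.71, 5.82 and 5.73 in the controls and 7.97, 7.99, 6.12 and 5.96 in the arrays labelled deleted. Within each set it was higher by 0.22 to 0.48, and the clones lay so far apart that the arms overlapped. The difference was 0.32 ± 0.08, 1.25-fold (adjusted p = 0.11); it passed in 3 of 17 alternatives, including without clone 2 replicate 2 (adjusted p = 0.0178), with a range from 0.0178 to 1. Scarb2, the receptor that carries glucocerebrosidase, read 7.76, 7.98, 8.23 and 8.15 in the controls and 8.08, 7.87, 8.50 and 8.21 in the arrays labelled deleted (0.14 ± 0.08, adjusted p = 0.989), lower in 1 set and higher in 3. Hgsnat, which acetylates heparan sulfate at the membrane, read 9.92, 9.93, 9.35 and 9.25 in the controls and 10.02, 9.89, 9.21 and 9.07 in the arrays labelled deleted (-0.07 ± 0.05, adjusted p = 1). Lamp1 and Lamp2, the main structural glycoproteins of the membrane, differed by -0.01 ± 0.03 and 0.01 ± 0.04, running from 11.53 to 11.71 and from 11.28 to 11.67 over all 8 arrays. Mcoln1, the calcium channel of the lysosome, differed by 0.01 ± 0.04.

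Tfeb ran from 7.98 to 8.03 in the controls and read 7.93, 8.02, 8.01 and 8.07 in the arrays labelled deleted, with overlap and a difference of 0.01 ± 0.07 with a 95% interval from -0.13 to 0.15. Its activity is set largely by where the protein sits in the cell, which an array does not read. Members with GTCACGTG in a window had a median difference of 0.00 (n = 11, 7 above 0), members with a window and no such motif 0.03 (n = 24, 21 above 0), and members without a window 0.05 (n = 6, 3 above 0). These are descriptions with no test. Over the 40 members that did not pass, the 95% intervals lay between -0.20 and 0.50.

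**Figure D2:**
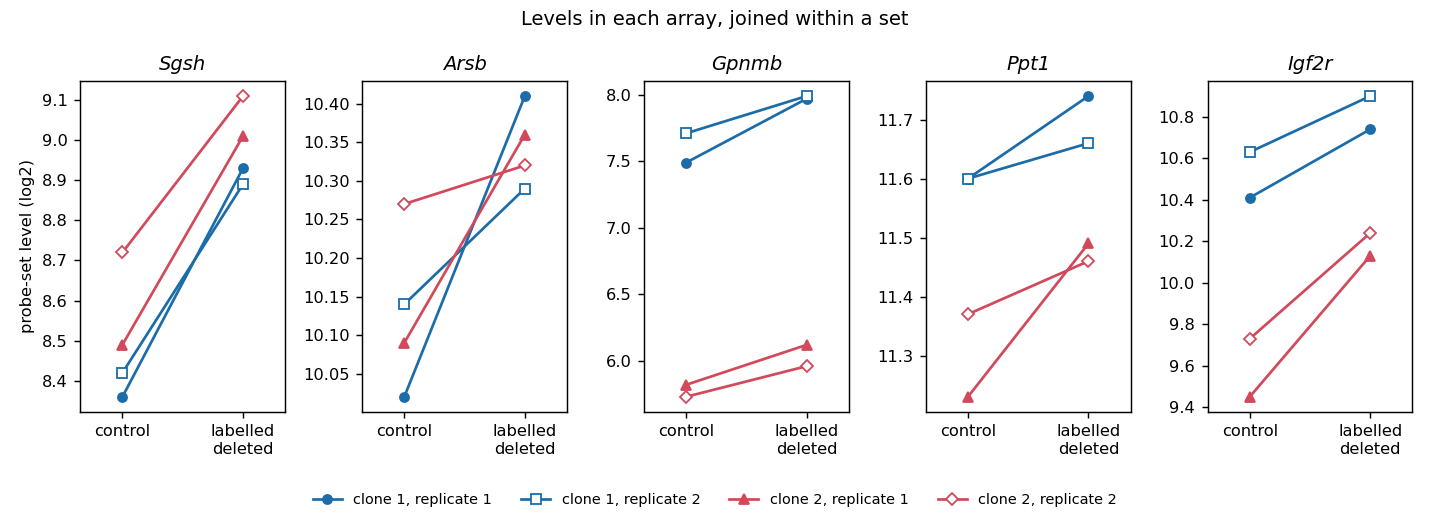
Log2 probe-set level (y axis, a separate scale per panel) of Sgsh, Arsb, Gpnmb, Ppt1 and Igf2r in control arrays and arrays labelled deleted, with lines joining the arrays of a set. Every line is higher at its right end; Sgsh and Arsb have no overlap between arms, and the clones are apart for Gpnmb, Ppt1 and Igf2r.

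The sets were not alike. The median difference over the 41 genes was 0.08 in clone 1 replicate 1 and 0.06 in clone 2 replicate 1, against 0.01 in clone 1 replicate 2 and -0.01 in clone 2 replicate 2. In that order of sets, 31, 29, 24 and 18 of the 41 were above 0. With the sets of replicate number 1 alone, 6 members passed (Arsb, Gpnmb, Hexa, Ppt1, Scarb2 and Sgsh, all higher), against 3.11% of all genes, 1.97% higher. With those of replicate number 2 alone, 1 passed, Sgsh, against 2.22% of all genes, 0.717% higher. Tested directly, the effect differed between the numbers at an adjusted p under 0.05 for 0 of 41 members and 0 of 19938 genes. At an unadjusted p under 0.05 there were 11 of 41 members, all with the lower effect in replicate number 2. Over all genes there were 3589 of 19938, with 1512 lower and 2077 higher in replicate number 2. At any p, the effect was lower in replicate number 2 for 36 of 41 members and 9405 of 19938 genes. The design text speaks of independent experiments, but nothing ties a replicate number to one, and a part of an experiment, batch or scan in this was not tested.

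The effect in each clone was also estimated, from a joint fit to the arrays of both clones with a shared residual variance. The p-values of either clone therefore rest on the spread in both, and the calls in the clones are not independent of each other. Sgsh was the only member that passed in clone 1 (0.181% of all genes passed, 0.0602% higher and 0.12% lower) and the only one in clone 2 (0.682%, 0.286% higher and 0.396% lower). At an adjusted p under 0.05 the effect differed between the clones for 0 of 41 members and 2 of 19938 genes (0.01%, with 0.00502% in each direction), and at an unadjusted p under 0.05 for 0 members and 393 genes. The clone counts depend on the fit: 1 or 0 members passed in clone 2 and between 0 and 2 in clone 1.

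Levels also differed between the clones. In control arrays, 8 of 41 members differed by an adjusted p under 0.05, 1 higher and 7 lower in clone 2, against 3.97% of all genes (1.6% higher and 2.37% lower). Gpnmb was 3.54-fold lower in clone 2, at -1.82 ± 0.13 (SE, 2 arrays a clone; adjusted p = 1.06e-05, limma), with 7.49 and 7.71 in clone 1 against 5.82 and 5.73. Ctsh was 2.65-fold higher in clone 2, at 1.41 ± 0.23 (adjusted p = 0.00626, limma), with 5.43 and 5.43 against 6.91 and 6.76. The lower side of both, Gpnmb in clone 2 and Ctsh in clone 1, lay below the medians of those control arrays. Whether these low levels stood above background was not tested. Npc1 was 1.59-fold lower (-0.67 ± 0.10), Ids 1.59-fold lower (-0.67 ± 0.13), Hgsnat 1.54-fold lower (-0.63 ± 0.09), Tpp1 1.49-fold lower (-0.57 ± 0.08), Ctsd 1.39-fold lower (-0.48 ± 0.07) and Ppt1 1.23-fold lower (-0.30 ± 0.06), with adjusted p-values from 0.00224 to 0.0284. Tpp1 read 11.04 and 11.09 in the controls of clone 1 and 10.41 and 10.57 in those of clone 2.

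The same clone comparison within the arrays labelled deleted also gave 8 members (5.25% of all genes passed, 1.82% higher and 3.43% lower). Of the 41 members, 7 passed in both arms, with 0 in opposite directions, and of all 19938 genes 690 passed in both arms. Ctsl entered (-0.91, adjusted p = 0.0348, against -0.81 and 0.0748 in the controls), and Ppt1 left (-0.23, adjusted p = 0.0801). Over all 8 arrays the clones did not overlap for 22 of 41 members, 19 with clone 1 higher and 3 (Ctsh, Lgmn and Scarb2) with clone 2 higher; over all genes 19.7% did not overlap, 10.5% with clone 1 higher and 9.22% with clone 2 higher. Each clone is 1 line, so clone and its history cannot be told apart.

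**Figure D3:**
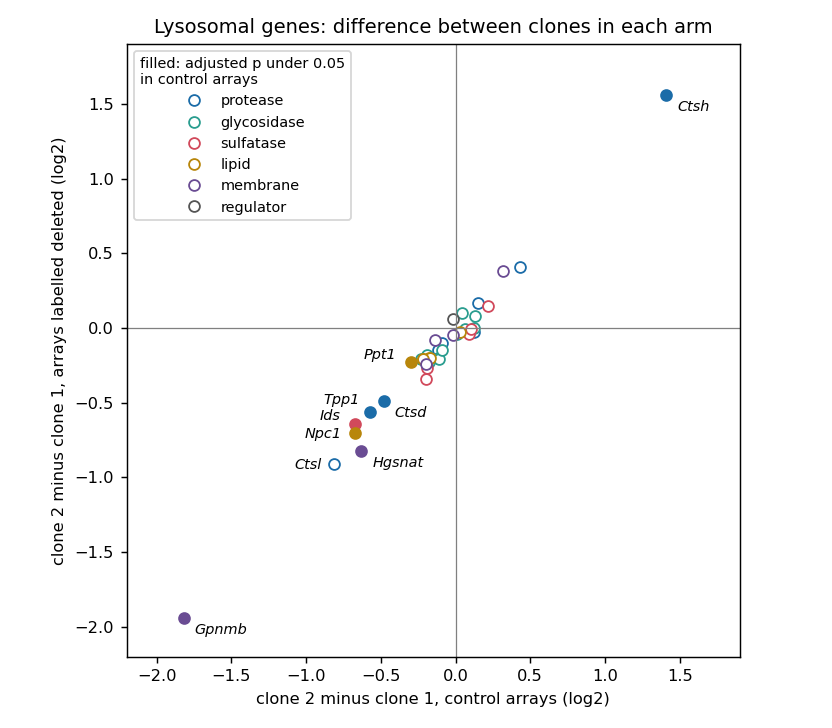
Difference between the clones (clone 2 minus clone 1, log2) for each of the 41 genes in control arrays (x axis) and in arrays labelled deleted (y axis), coloured by class. Filled points passed in control arrays. Points lie near the diagonal, with Gpnmb at -1.82 and -1.94 and Ctsh at 1.41 and 1.56.

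Markers of other cell types were read beside this. In control arrays 1.6% of all genes were higher in clone 2 and 2.37% lower. Of 16 monocyte and macrophage markers measured, 3 were higher in clone 2 in control arrays (Csf1r, Fcgr1 and Vcam1, by 0.70, 1.89 and 1.55). Among the 16, 1 was lower (Adgre1, by 1.23). Their summed level on the linear scale ran from 2002 to 2460 in clone 1 and from 2321 to 3348 in clone 2. Of 5 B cell markers 1 was higher in clone 2, Cd79b, by 2.99, while the other 4 differed by -0.05 to 0.26, and the list's sum ran from 194 to 221 in clone 1 and from 752 to 973 in clone 2. In the same control arrays, 2 of 10 progenitor markers were higher in clone 2 and 1 was lower. Of 4 megakaryocyte markers 1 was higher, and of 8 mast cell and basophil markers 1 was lower. In the neutrophil, erythroid, T and NK cell and dendritic cell lists none passed between the clones. The part of these markers in the clone differences was not tested. Between the arms, 0.481% of all genes were higher and 0.471% lower. For the 16 monocyte and macrophage markers, 0 were higher and 1 lower, Vcam1 (-0.54 ± 0.07, adjusted p = 0.00324, limma). At any p, 10 of the 16 lay above 0 and 6 below, with a median of 0.05. Of 10 progenitor markers, 4 were lower in the arrays labelled deleted: Kit (-0.36), Prtn3 (-0.15), Ms4a3 (-0.81) and Cebpa (-0.66). At any p, 3 of the 10 lay above 0, up to 0.29, and 7 below, with a median of -0.03. The sum of the 10 ran from 41969 to 44512 in controls and from 40167 to 44125 in arrays labelled deleted. Among 10 neutrophil markers Ngp was lower (-0.45 ± 0.09), while 4 of the 10 lay above 0 and 6 below, with a median of -0.04. Their mean log2 level was 7.97 and 8.03 in the control array and the array labelled deleted of clone 2 replicate 1, against 6.78 to 7.20 in the other 6 arrays, and their sum ran from 3773 to 5546 in clone 1 and from 2090 to 8517 in clone 2. The part of this in the results of single sets, such as that of Ctsh, was not tested. Among 8 mast cell and basophil markers Hdc was higher (0.63 ± 0.06), while 4 of the 8 lay above 0 and 4 below, down to -0.24. None passed in the erythroid, megakaryocyte, B cell, T and NK cell or dendritic cell lists. The part of such shifts in the difference of Sgsh was not tested. In bulk cultures, fewer cells of a type and less RNA per cell cannot be told apart.

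The rest of the pathway was read from 6 lists, other than the 41 genes. Over all genes, 0.481% were higher and 0.471% lower at an adjusted p under 0.05. Of 28 sorting genes, 1 rose: Igf2r, the large mannose 6-phosphate receptor, read 10.41, 10.63, 9.45 and 9.73 in the controls and 10.74, 10.90, 10.13 and 10.24 in the arrays labelled deleted, a difference of 0.45 ± 0.06 (1.37-fold, adjusted p = 0.00219). It was higher in every set while the arms overlapped, and clone 2 was lower than clone 1 by 0.93 in the controls. The median difference of the 28 sorting genes was -0.01, with 8 above 0 and 20 below. Of 9 inhibitors of cathepsins and other proteases, 2 fell. All 9 lay below 0, with a median of -0.08, while 9941 of 19938 genes lay below 0. Serpinb1a, an inhibitor of neutrophil serine proteases, read 11.58, 11.54, 11.79 and 11.66 in the controls and 11.35, 11.19, 11.24 and 11.01 in the arrays labelled deleted, without overlap (-0.45 ± 0.05, 1.36-fold, adjusted p = 0.0013). Cst7, cystatin F, an inhibitor of cysteine cathepsins, read 11.40, 11.30, 11.69 and 11.95 in the controls and 11.18, 11.13, 11.54 and 11.81 in the arrays labelled deleted, with overlap (-0.17 ± 0.03, adjusted p = 0.0119). Of 17 alternatives, Igf2r and Serpinb1a passed in 13 each and Cst7 in 10, and all 3 calls were lost without the set as a block (adjusted p = 1, 0.954 and 1). All 3 were also lost with clone as the only covariate, with no variance trend and with all probe sets tested. For Igf2r and Serpinb1a the adjusted p in these settings ran from 0.0563 to 0.234 (limma). The call of Cst7 was further lost with clone and replicate number as covariates (adjusted p = 0.587, limma) and with arrays centred (0.121). Leaving out clone 1 replicate 2 lost it too (adjusted p = 0.0824).

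Of 31 other hydrolases and cofactors, 42 other membrane proteins, 24 subunits of the V-ATPase, the proton pump that acidifies the lysosome, and 22 genes of MiT factors and nutrient sensing, 0 passed. Their medians were 0.00, -0.02, -0.04 and -0.03. The unadjusted p was under 0.05 for 4, 3, 8 and 3 of them, against 6.47% of all genes. In the order of the lists, 2, 0, 3 and 1 of these were higher and 2, 3, 5 and 2 lower. The gene with the smallest p in each was Gm2a, the GM2 activator (0.18 ± 0.05, adjusted p = 0.133), Cd63, a tetraspanin (-0.12 ± 0.03, 0.0905), Atp6v0a1 (0.19 ± 0.05, 0.156) and Lamtor4 (-0.10 ± 0.03, 0.278). Tfeb's relatives Tfe3, Mitf and Tfec, named here for their kinship and outside the naming rule, differed by -0.05 ± 0.06, -0.11 ± 0.07 and 0.10 ± 0.03 (adjusted p = 1, 1 and 0.298).

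**Figure D4:**
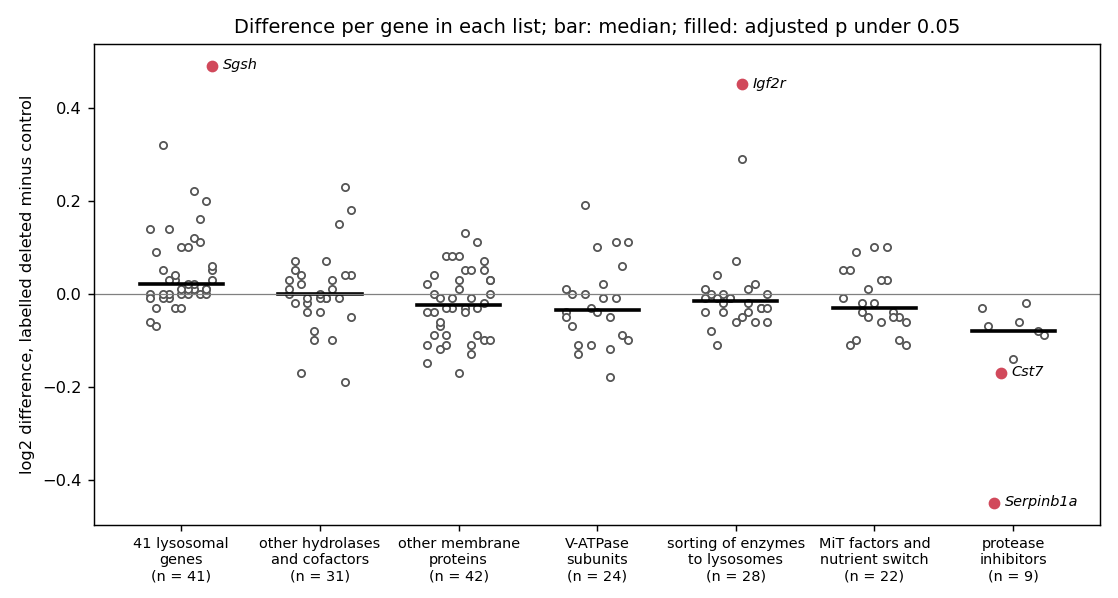
Difference in log2 level, labelled deleted minus control (y axis), for each gene of the 41 lysosomal genes and of 6 other lists (x axis). The bar is the list's median, and filled points passed an adjusted p under 0.05: Sgsh, Igf2r, Cst7 and Serpinb1a.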

How the data were processed

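The authors' deposited values are log2 probe-set levels of 8 arrays; the submitters' processing notes name RMA, which corrects background, quantile-normalizes and summarises probes. Sources used here give neither its version nor a chip definition, and the log2 scale was read from the values. Of 35556 probe sets, 21789 had 1 symbol in the supplied platform annotation, 1621 had several and 12146 were not listed; no symbol changed through Entrez identifiers, and 91 had no match. For 999 genes with more than 1 probe set the brightest was kept, which left 19938 genes.

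limma 3.58.1 in R 4.3.3 was fitted to all genes with the set as a block, as the design text compares 4 sets, with a variance trend and Benjamini-Hochberg adjustment (threshold 0.05, 3 residual degrees of freedom). Same-set deviations correlated at 0.72 to 0.82, and 4 of 4 sets correlated best with their own; after clone means were removed the values were 0.44 and 0.25. Effects within a clone were estimated in a joint fit of both clones with the same block and a shared residual variance. Differences between clones within an arm were fitted to the 4 groups of arm and clone without a block, since a set lies in 1 clone. Replicates are labelled biological. With the set as a block, p-values rest on how far the differences of the 4 sets disagree, not on the spread between all cultures. limma moderates this estimate with that of all genes (9.72 prior degrees of freedom beside the 3 residual ones). The sets share clones, so they are not 4 separate lines. For differences between clones, fitted without a block, p-values rest on the spread between cultures of the same arm and clone. The number of arrays limits precision. The script was tested on simulated data.

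The members and lists were chosen with earlier results of these data known. Values in every array, or their range, are given for members past the threshold in any fit, the 3 of smallest p and the 2 brightest and the dimmest of each class; of other lists, the genes that passed or the 1 of smallest p. Alternatives using 1 replicate number were added after seeing the data.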

Additional observations from a re-analysis of the deposited data

Results flagged for a closer look

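Checked were 123 groups of 4 values: the control levels, the levels in arrays labelled deleted and the set differences of 41 genes. Of these groups, 1 held a value that stood apart by Dixon's criterion. Chance meets it in about 1 in 20 groups whose values come from 1 population. Each group here held values of both clones, so that rate need not apply. The control level of Idua, the lysosomal iduronidase, was 9.01 in clone 1 replicate 1, against 9.27 to 9.29 in the other 3 control arrays. The gap was 0.923 of the group's range.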

How the results depend on the processing

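The number of members past the threshold, 1 in the fit reported, was 0 with no replicate block (2 unadjusted; 0 genes in all, 317 unadjusted) and 0 with all probe sets tested (7 unadjusted; 0 in all, 1834 unadjusted). It was 4 with array weights (388 genes in all), 2 with quantile normalization again (230) and 2 with the mean of a gene's probe sets (188). Leaving out 1 set at a time gave 1 to 4, with 4 without clone 2 replicate 2. The sets of replicate number 1 alone, chosen after seeing the data, gave 6 and moved the members' median from 0.02 to 0.06. Over all genes, 190 became 13 with no variance trend, 23 with clone alone in place of the set, 78 with clone plus replicate number, 388 with array weights, 98 without clone 1 replicate 2, 110 without clone 2 replicate 1, 418 without clone 2 replicate 2, and 620 and 443 with the sets of replicate number 1 or 2 alone. Centring the arrays shifted the median of all genes by -0.02.

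Members past the threshold within clone 1 were 1 as reported (36 genes in all). They were 0 with no block, with no trend and with arrays centred (1, 0 and 59 genes), and 2 with array weights (131 genes). Within clone 2, 1 (136 genes in all) became 0 with no block, no trend, array weights or arrays centred (4, 3, 96 and 111 genes). The 3 calls of the pathway lists became 0 with no block and 0 with no trend. Of 696 single-member values under an alternative, 13 gained a call, 2 lost it and 0 reversed; the cause was not tested.

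The clone difference gave 7 to 11 members over its alternatives, against 8 members and 792 genes as reported. It gave 7 with no variance trend (696 genes in all) and 11 with array weights (1599 in all). Without the block Sgsh was the one member to lose a call.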
